A study of Rattus norvegicus with 24 samples.

Results

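The transcription factors described here are the myogenic regulatory factors Myod1 and Myf6, the MEF2 proteins Mef2a, Mef2c and Mef2d, and the serum response factor axis of Srf, its coactivators Mrtfa and Mrtfb, and Hopx. They were picked by gene symbol, 9 names in all, and earlier results of these data were known at that point. The gene table of the series held 10851 genes and 8 of the 9 names. Mrtfb was not analysed here. RNA was measured in the medial gastrocnemius, a mostly fast-twitch calf muscle, of 24 male Wistar rats, 6 in each of 4 groups. Sed rats received saline and stayed sedentary, and Ex rats received saline and were trained on a treadmill. CC-Sed and CC-Ex rats received monocrotaline, a plant alkaloid that injures lung vessels and leads to right heart failure and cardiac cachexia, and were sedentary or trained, respectively. All rats, the sedentary ones included, ran treadmill tests of exercise capacity, and the study kept only monocrotaline rats whose right ventricle was enlarged. The age of the animals is not given in the sources used here.

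Myod1 and Myf6 are basic helix-loop-helix proteins that pair with E proteins on E-boxes. Myod1 commits cells to the muscle lineage and is kept at a higher level in fast fibres, while Myf6, also called MRF4, is the family member that prevails in adult fibres. MEF2 proteins bind AT-rich sites next to the myogenic factors and are held in check by class II histone deacetylases until calcium signals release them. Srf binds CArG boxes in genes of actin and the sarcomere. Mrtfa and Mrtfb sense free actin monomers, move to the nucleus when actin polymerises, and switch on Srf. Hopx is a small homeodomain protein that does not bind DNA and restrains Srf.

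The promoter windows of 3 of the genes are shown because they hold a CArG box or a MEF2 site, which factors of the same set bind. They come from RefSeq on the GRCr8 build, in which 6 of the 8 measured genes had an entry, and reach up to 250 bases before the annotated start. The Srf window, chr9:21923826-21924049 on the plus strand, stops at the outermost start of the gene, and its capitals mark 2 CArG boxes, the sequence that Srf itself binds.
Srf: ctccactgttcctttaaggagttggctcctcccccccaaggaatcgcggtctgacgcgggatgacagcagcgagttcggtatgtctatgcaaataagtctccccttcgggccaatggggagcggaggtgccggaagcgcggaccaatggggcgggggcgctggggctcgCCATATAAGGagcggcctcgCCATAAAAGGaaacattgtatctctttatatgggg
The Myf6 window, chr7:44701314-44701563 on the minus strand, lies wholly upstream of the gene, and its capitals mark a MEF2 site followed by an E-box.
Myf6: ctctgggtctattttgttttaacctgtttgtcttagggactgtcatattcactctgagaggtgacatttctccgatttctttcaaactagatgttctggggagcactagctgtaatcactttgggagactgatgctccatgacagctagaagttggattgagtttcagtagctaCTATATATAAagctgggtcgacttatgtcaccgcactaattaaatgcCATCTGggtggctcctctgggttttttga
The Mef2a site, chr1:130392183-130392212 on the minus strand, lies within the outer range of the gene, upstream of the start that RefSeq lists here, and its capitals mark a MEF2 site.
Mef2a: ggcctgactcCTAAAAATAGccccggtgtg

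Positions are counted back from the annotated start. In Srf the CArG boxes CCATATAAGG and CCATAAAAGG began at -81 and -61. In Myf6 the MEF2 site CTATATATAA began at -76 and the E-box CATCTG at -29. In Mef2a the MEF2 site CTAAAAATAG began at -40. Both strands were searched. A CArG box was present in 1.5% of the 27457 promoters of the same length, a MEF2 site in 3.07%, and an E-box, CANNTG, in 65.2%, so that an E-box was the usual case and the other sites were not. Mrtfa held an E-box, CAGGTG at -62, and Hopx held CACGTG at -68, which lies within the outer range of the gene. Neither gene had a CArG box or a MEF2 site in its window, and Mef2d had none of the 3 motifs. These matches describe letters only and show no binding.

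Libraries held between 37816239 and 50350554 estimated counts, and no gene in the table had a count under 10 in any rat, so all 8 factors passed the filter on low counts. Levels are given as CPM, counts scaled to the library total after TMM normalization, which evens out library composition. Of 12 markers of skeletal muscle fibers 10 were measured, with a summed level of 117400 to 267100 CPM, so the labelled tissue was plain in each library. The CC-Ex rat numbered 5 stood apart, at 96.5 on the first principal component (39.7% of the variance), against -27.8 to 51.7 for the other rats. It had the lowest CC-Ex level of Myod1, Mef2c, Srf, Mrtfa and Hopx and the highest of Mef2d. Its highest correlation with another library was 0.9521, and that of each other library was at least 0.9792. Values without it stand beside the results that it moved most.

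The study asked how aerobic training bears on the RNA changes of cachectic muscle, and the comparisons of monocrotaline with saline were made in sedentary and in trained rats. In sedentary rats Myf6 rose, and Mrtfa and Hopx fell. These 3 of 8 factors passed an adjusted p of 0.05 in edgeR's quasi-likelihood test with Benjamini-Hochberg adjustment over all genes, against 6.46% of all genes in the same comparison. At an unadjusted p under 0.05 there were 6 of 8, against 28.4%. Of these 3, Mrtfa and Hopx also had a log2 fold change of at least 1 in size, against 1.87% of all genes. As the factors were chosen with earlier results of these data known, these shares are no independent test of the set. In trained rats none of the 8 passed, against 0.995% of all genes, while 3, Srf, Mrtfa and Hopx, had an unadjusted p under 0.05, against 22.6%. Over all 24 rats, 12 of each treatment, 5 of 8 passed, with Myod1 and Srf added to the list of genes that fell, against 27.8% of all genes. Of these, 2 also had a log2 fold change of at least 1 in size (Myod1 and Mrtfa), against 2.88%. The median log2 fold change of the 8 was -0.26 in sedentary and -0.33 in trained rats, beside 0.02 and 0.01 over all genes. In this edgeR fit the MEF2 genes did not pass in any of the 3 comparisons. With limma-voom Mef2d passed in sedentary rats (adjusted p = 0.0338), as did 22.8% of all genes.

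**Figure D1:**
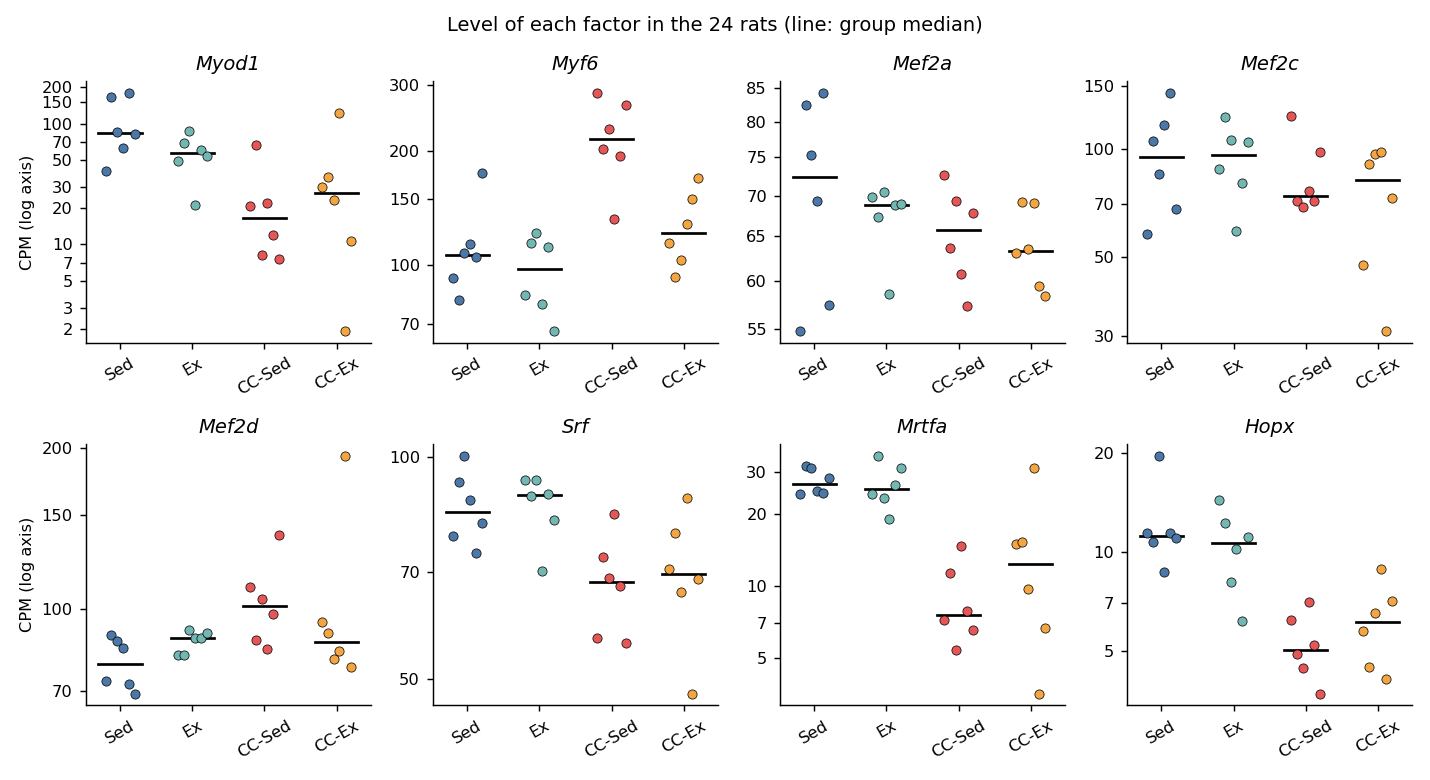
CPM of each factor on a log axis in every rat of the 4 groups (points, 6 per group), with the group median as a line. In Mrtfa and Hopx all CC-Sed points lie below all Sed points, in Myf6 they are shifted upward with overlap, and Mef2a varies over a narrow range.

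Myod1 (ENSRNOG00000011306), the lineage-determining factor, ranged in Sed rats from 40.7 to 179.8 CPM with a median of 83.3, and in CC-Sed rats from 7.59 to 66.95 CPM with a median of 16.4. All 6 CC-Sed rats lay below the Sed median, but CC-Sed rat 2, at 66.95 CPM, lay inside the Sed range. Ex rats ranged from 21.3 to 87.6 CPM around a median of 57.4, and CC-Ex rats from 1.92 to 123.7 CPM around 26.4. The highest and the lowest CC-Ex rats, numbers 4 and 5, were 64.3-fold apart, so the trained groups overlapped over the whole Ex range.

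The fitted Myod1 level was 4.48-fold lower in CC-Sed than in Sed (log2 fold change -2.17, SE 0.673), and its adjusted p of 0.0538 missed the threshold. The 95% interval of the log2 fold change began at -3.57 and ended at -0.76. In Ex vs. CC-Ex the log2 fold change was -0.60 (SE 0.647, adjusted p = 0.57), and it was -1.49 without CC-Ex rat 4 and -0.36 without CC-Ex rat 5 (adjusted p = 0.827). Pooled over sedentary and trained rats Myod1 fell, with a log2 fold change of -1.38 (SE 0.465, edgeR adjusted p = 0.0311). Myod1 was the most variable of the 8 genes, with a biological coefficient of variation of 0.743 in the fit against a median of 0.213 over all genes.

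Whether Myod1 passed in sedentary rats changed when single animals were left out of the fit. With each rat removed in turn it was called in 4 of 24 fits. The log2 fold change was -2.86 without CC-Sed rat 2 (edgeR adjusted p = 0.0153), -2.15 without CC-Sed rat 4 (adjusted p = 0.0496), -2.17 without CC-Ex rat 4 (adjusted p = 0.0281) and -2.18 without CC-Ex rat 5 (adjusted p = 0.0146). More of all genes passed in these 4 fits too, 12%, 15.9%, 9.63% and 19.3% in that order, against 6.46% with all rats. Without CC-Sed rat 4 the SE for Myod1 was 0.735, larger than the 0.673 with all rats. The pooled effect was called in 18 of the 24 such fits. It missed the threshold without Sed rats 2 or 5, Ex rat 3, or CC-Sed rats 1, 3 or 6, with adjusted p values up to 0.0548. In 6 of the 9 other settings tried, Myod1 passed in Sed vs. CC-Sed, with adjusted p values between 0.00403 and 0.0549 over the 9. The 6 were DESeq2, limma-voom, fits of only the rats compared, and the replicate block, library number or a slow fiber score as covariates. In that order, 12.3%, 22.8%, 9%, 5.1%, 8.15% and 11.9% of all genes passed there, against 6.46% in the main fit.

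Myf6 (ENSRNOG00000004878), the factor of mature fibers, was higher after monocrotaline in sedentary rats. Sed rats ranged from 80.8 to 175.6 CPM with a median of 106.2 (mean 112.5 ± 33.1 SD, n = 6), and CC-Sed rats from 132.5 to 285.6 CPM with a median of 215.8 (mean 218.4 ± 54.9 SD, n = 6). All 6 CC-Sed rats exceeded the Sed median, and the ranges overlapped because Sed rat 6, at 175.6 CPM, was above the lowest CC-Sed rat. Myf6 rose 1.94-fold (log2 fold change 0.96, SE 0.204, edgeR adjusted p = 0.0137), and it was called in each of the 24 fits without 1 rat. Ex rats ranged from 67.1 to 121.6 CPM with a median of 97.6, and CC-Ex rats from 93.1 to 170.6 with a median of 121.8. The difference between trained groups was 0.40 on the log2 scale (SE 0.203) and did not pass (adjusted p = 0.241). Pooled over training, Myf6 rose by 0.68 on the log2 scale (SE 0.144, edgeR adjusted p = 0.0028).

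Myod1 and Myf6 therefore differed in direction in the pooled comparison. No relation between rats of the same group was detected. After each rat's group mean had been subtracted, Pearson's r was -0.20 (n = 24 rats, permutation p = 0.371, adjusted p = 0.445 over 6 pairs) and Spearman's rho was -0.186 (permutation p = 0.412). Without CC-Ex rats 5 and 4 r was -0.176, and without CC-Ex rat 5 alone it was -0.108.

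Mrtfa (ENSRNOG00000018803), the actin-sensing coactivator of Srf, ranged from 24.2 to 31.6 CPM in Sed rats (median 26.6) and from 5.43 to 14.7 CPM in CC-Sed rats (median 7.56). The group means were 27.4 ± 3.38 and 8.85 ± 3.48 CPM (SD, n = 6 each). The 2 groups did not overlap. Such separation with lower levels after monocrotaline was found in 1.29% of all genes. Mrtfa fell 3.10-fold in sedentary rats (log2 fold change -1.63, SE 0.342, edgeR adjusted p = 0.0133).

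In trained rats Mrtfa ranged from 19.1 to 35.0 CPM after saline (median 25.3) and from 3.57 to 30.97 CPM after monocrotaline (median 12.4). CC-Ex rat 4, at 30.97 CPM, lay inside the Ex range, and the other 5 were below each Ex rat. The log2 fold change was -0.97 (SE 0.336, edgeR adjusted p = 0.115) with all rats and -1.40 without CC-Ex rat 4 (edgeR adjusted p = 0.0105). Without CC-Ex rat 5 it was -0.78 (edgeR adjusted p = 0.261). In the fits without rat 4 and without rat 5, 7.81% and 0.0461% of all genes passed, against 0.995% with all rats. The pooled fall was -1.30 on the log2 scale (SE 0.239, edgeR adjusted p = 0.00109).

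Srf (ENSRNOG00000018232), the DNA-binding partner of Mrtfa, had smaller fold changes. Sed rats ranged from 74.2 to 100.5 CPM with a median of 84.4, and CC-Sed rats from 56.0 to 83.9 CPM with a median of 67.8. All 6 CC-Sed rats lay below the Sed median while the ranges overlapped. In Ex rats the level ran from 70.1 to 93.2 CPM (median 88.9), and in CC-Ex rats from 47.9 to 88.0 CPM (median 69.5), again with all 6 below the saline median. The log2 fold change was -0.34 (SE 0.125, edgeR adjusted p = 0.0868) in sedentary and -0.30 (SE 0.125, edgeR adjusted p = 0.168) in trained rats, so neither passed alone. In trained rats it was -0.22 without CC-Ex rat 5 (edgeR adjusted p = 0.417). In sedentary rats it passed without CC-Sed rat 4 (-0.41, adjusted p = 0.0321) or without CC-Ex rat 5 (-0.37, adjusted p = 0.0292). In those fits 15.9% and 19.3% of all genes passed, against 6.46% with all rats. Pooled over sedentary and trained rats, Srf fell by 0.32 on the log2 scale (SE 0.0884, edgeR adjusted p = 0.0121). This pooled fall was also called in each of the 24 fits without 1 rat.

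Hopx (ENSRNOG00000024689), the homeodomain protein that does not bind DNA, had the lowest adjusted p of the 8 genes in Sed vs. CC-Sed. Its level was 8.73 to 19.6 CPM in Sed rats (median 11.2) and 3.72 to 7.06 CPM in CC-Sed rats (median 5.05), with no overlap. The means were 12.2 ± 3.78 and 5.26 ± 1.21 CPM (SD, n = 6 each). Hopx fell 2.31-fold (log2 fold change -1.21, SE 0.224, edgeR adjusted p = 0.00596). The study itself, with DESeq2, reported Hopx as downregulated in this comparison. Without Sed rat 3, the highest rat, the log2 fold change was -1.02 and the gene was still called.

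Trained saline rats had 6.19 to 14.4 CPM of Hopx (median 10.6), and trained monocrotaline rats had 4.13 to 8.88 CPM (median 6.13). All 6 CC-Ex rats were below the Ex median, with overlap. The log2 fold change of -0.75 (SE 0.222) had an adjusted p of 0.0773 in edgeR, 0.0294 in DESeq2, and 0.0234 in edgeR without CC-Ex rat 4. Without CC-Ex rat 5 it was -0.67 (edgeR adjusted p = 0.207). Of all genes 0.995% passed in edgeR with all rats, 6.31% in DESeq2, 7.81% without rat 4 and 0.0461% without rat 5. The pooled fall of Hopx was -0.98 on the log2 scale (SE 0.157, edgeR adjusted p = 0.000392).

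**Figure D2:**
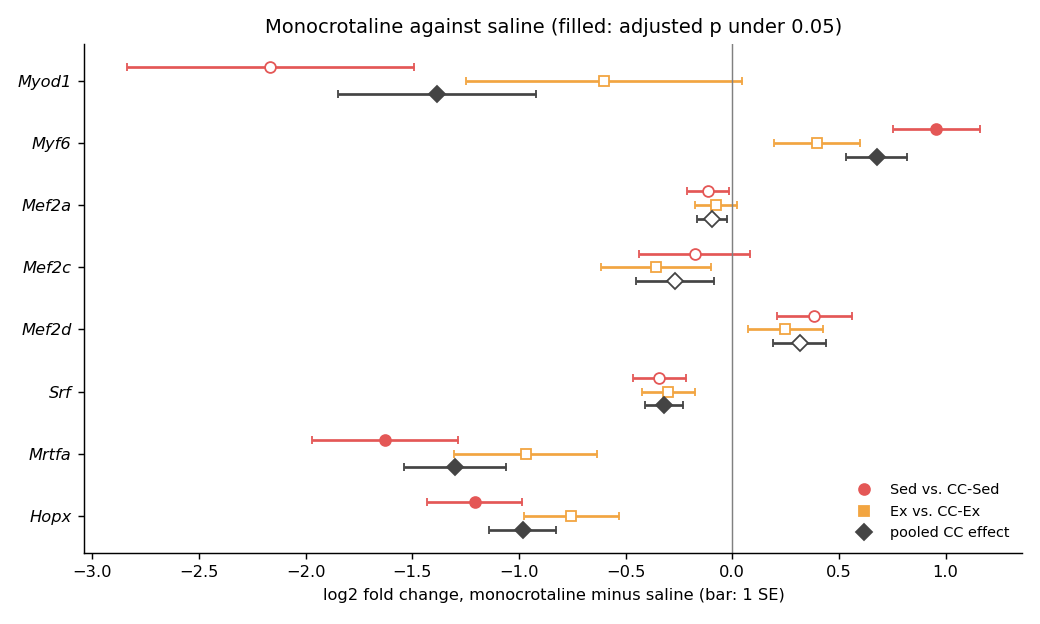
Log2 fold change (monocrotaline minus saline, bars of 1 SE) of each factor in sedentary rats, in trained rats and pooled over both, with filled symbols where the edgeR adjusted p was under 0.05. Myf6 and Mef2d lie to the right of 0 and the other 6 to the left, with Mef2a nearest to 0. The filled symbols are Myf6, Mrtfa and Hopx in sedentary rats, and these with Myod1 and Srf in the pooled comparison.

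The MEF2 genes did not pass in edgeR with all rats. Their largest log2 fold change after monocrotaline, 0.39 for Mef2d in sedentary rats, was close in size to that of Srf there (-0.34). Mef2a (ENSRNOG00000047756) had the lowest biological coefficient of variation of the 8 factors, 0.139. It ranged from 54.8 to 84.3 CPM in Sed rats (median 72.3) and from 57.3 to 72.7 CPM in CC-Sed rats (median 65.8). Trained rats had 58.6 to 70.4 CPM after saline (median 68.8) and 58.3 to 69.2 CPM after monocrotaline (median 63.3), and all ranges overlapped. The pooled log2 fold change was -0.10 (SE 0.0699, edgeR adjusted p = 0.301), with a 95% interval from -0.24 to 0.05.

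Mef2c (ENSRNOG00000033134), which acts in sarcomere assembly, ranged from 57.9 to 143.3 CPM in Sed rats (median 94.9) and from 68.9 to 123.5 CPM in CC-Sed rats (median 73.8). It ranged from 58.97 to 122.9 CPM in Ex rats (median 96.0) and from 31.0 to 98.1 CPM in CC-Ex rats (median 81.9). The ranges overlapped in both comparisons, and the log2 fold changes of -0.18 (SE 0.259) and -0.36 (SE 0.259) did not pass (edgeR adjusted p = 0.674 and 0.394). Without CC-Ex rat 5 the value in trained rats was -0.21 (edgeR adjusted p = 0.727).

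Mef2d (ENSRNOG00000031778) had values of 69.3 to 89.4 CPM in Sed rats (median 78.7) and 83.9 to 137.8 CPM in CC-Sed rats (median 100.9). All 6 CC-Sed rats exceeded the Sed median. The log2 fold change of 0.39 (SE 0.175) did not pass with all rats (edgeR adjusted p = 0.153), and was 0.35 without CC-Ex rat 5 (SE 0.0972, edgeR adjusted p = 0.0171). That rat is in neither of these groups, and without it 19.3% of all genes passed here, against 6.46% with all rats. Ex rats had 81.9 to 91.4 CPM (median 88.1). CC-Ex rats had 77.6 to 193.8 CPM (median 86.5), where the top value was that of rat 5 and the next was 94.4. The difference between trained groups, 0.25 on the log2 scale with rat 5, was -0.04 without it. The pooled log2 fold change was 0.32 (SE 0.124, edgeR adjusted p = 0.0573) and 0.16 without that rat, and it passed in 5 of the 24 fits without 1 rat.

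**Figure D3:**
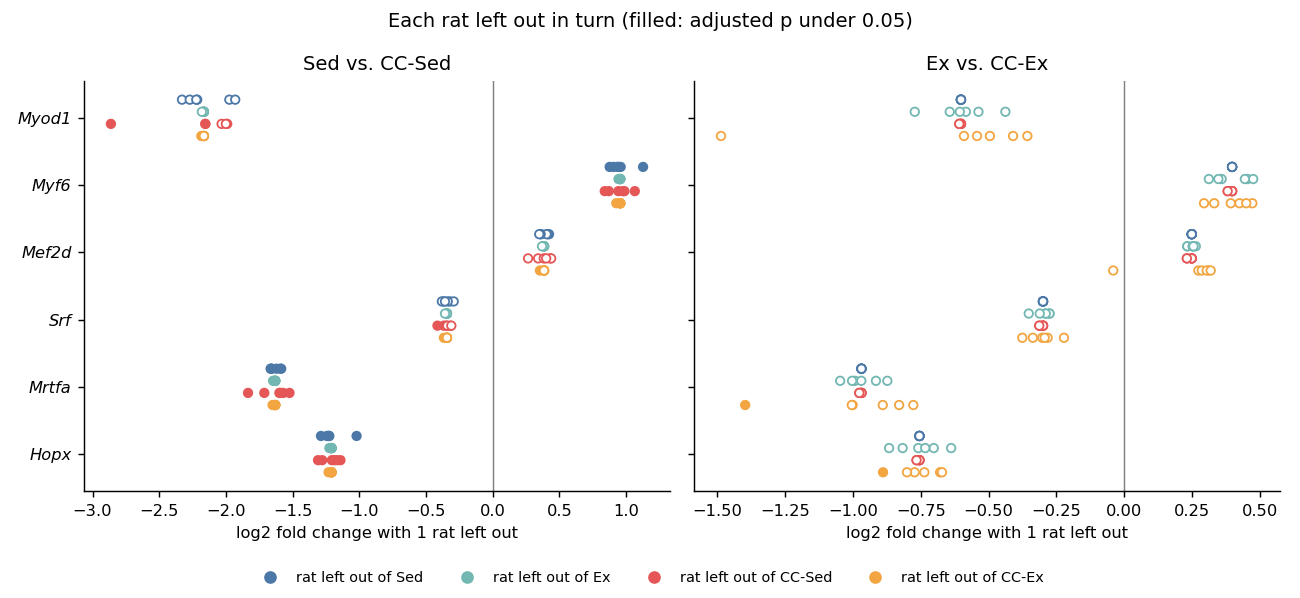
Log2 fold change of 6 factors when each of the 24 rats was left out in turn, by the group of the omitted rat, for sedentary (left) and trained (right) comparisons, with filled symbols where the edgeR adjusted p was under 0.05. Myf6, Mrtfa and Hopx are filled throughout on the left, whereas on the right Mrtfa and Hopx are filled in 1 fit each, the fit without CC-Ex rat 4, and Mef2d crosses 0 without CC-Ex rat 5. The horizontal scales of the panels differ.

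Markers of slow fibers also varied between rats. The summed level of the 7 measured slow fiber markers had a median of 2250 CPM in Sed and 6911 CPM in CC-Sed rats, and of 3942 CPM and 5827 CPM in the Ex and CC-Ex rats, with ranges that overlapped. Tnnt1, Myl2 and Myh7 were not analysed here. The median log2 fold change of the 7 was 1.64 in Sed vs. CC-Sed, and none passed in edgeR. The study itself, with DESeq2, reported Tnnc1, Tpm3, Tnni1, Myl3 and Atp2a2 as upregulated in this comparison. Within groups, the slow fiber score correlated with the 8 factors between -0.361 and 0.095 (n = 24 rats), as a description. With the score as a covariate 4 of the 8 factors passed in Sed vs. CC-Sed, and 11.9% of all genes, against 6.46% without it. The log2 fold changes were -1.89 for Myod1 (edgeR adjusted p = 0.0466) and 0.97 for Myf6 (edgeR adjusted p = 0.0143). They were -1.55 for Mrtfa (edgeR adjusted p = 0.016) and -1.13 for Hopx (edgeR adjusted p = 0.011).

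Markers of other cells were compared because several of the factors are also made outside fibers. Satellite cells, the stem cells of muscle, were represented by 5 of 7 markers, with Pax7 and Calcr not analysed here, and their summed level was 16.4 to 46.1 CPM over the 4 groups, with medians of 30.3 in Sed and 28.5 in CC-Sed rats. In the pooled comparison Myf5 of these 5 rose and Megf10 fell, and the median log2 fold change of the 5 was -0.33. Of 9 smooth muscle and pericyte markers 3 fell there, Acta2, Myl9 and Tagln, against 27.8% of all genes called in either direction. The summed level of the 9 was 226.6 to 308.4 CPM in Sed and 158 to 285.5 CPM in CC-Sed rats, and 253.4 to 468.9 CPM and 153 to 367.4 CPM in the Ex and CC-Ex rats. Of 10 fibroblast markers 4 fell in that comparison, Col1a1, Col1a2, Col3a1 and Mfap5, against the same 27.8%. Their summed level was 650.5 to 5836 CPM over all rats, with medians of 2162 in Sed, 1626 in CC-Sed, 2918 in Ex and 1340 in CC-Ex rats. Of 8 endothelial markers 2 rose and 1 fell in the pooled comparison, and of 3 adipocyte markers 1 fell, Adipoq. None of 9 macrophage markers was called. These are short lists and are read as counts only. The part of these cell types in the results for Srf, Mrtfa, Hopx and Myod1 was not tested. In whole muscle, fewer cells of a type and less RNA per cell cannot be told apart.

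Training was the second factor of the design. None of the 8 factors, and none of all genes (0%), passed in Sed vs. Ex, in CC-Sed vs. CC-Ex, in the pooled training comparison or in the interaction, which tests whether the monocrotaline effect differs with training. The same count of 0 was obtained in each with DESeq2 and with limma-voom. At an unadjusted p under 0.05, edgeR gave 0 of the 8 in Sed vs. Ex, 1 in CC-Sed vs. CC-Ex, 1 in the pooled training comparison and 0 in the interaction, beside 1.09%, 2.16%, 1.75% and 1.42% of all genes. CC-Ex rat 5 moved these unadjusted counts. Without it they were 3 in CC-Sed vs. CC-Ex (Myf6, Mrtfa and Mef2d) and 3 in the interaction (Myod1, Mrtfa and Mef2d), beside 13.7% and 4.51% of all genes, and none of the 8 passed after adjustment.

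The factor with the unadjusted p under 0.05 was Myf6 in both cases. All 6 CC-Ex rats lay below the CC-Sed median of 215.8 CPM, with ranges that overlapped between 132.5 and 170.6 CPM. The log2 fold change was -0.78 (SE 0.204, unadjusted p = 0.000821 in edgeR), which placed Myf6 at rank 2 of 10851 genes, and its adjusted p was 1. It had an adjusted p of 0.627 to 1 in the 9 other settings tried. In the pooled training comparison, Myf6 held rank 1 at -0.50 on the log2 scale (SE 0.144, unadjusted p = 0.00187 in edgeR), again with an adjusted p of 1. Between Sed and Ex rats the value for Myf6 was -0.22 (SE 0.203).

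No interaction passed. For Myod1 the interaction was 1.56 on the log2 scale (SE 0.918, unadjusted p = 0.102), for Myf6 -0.56 (SE 0.287, unadjusted p = 0.0635), for Mrtfa 0.66 (SE 0.472, unadjusted p = 0.174) and for Hopx 0.45 (SE 0.312, unadjusted p = 0.16), all by edgeR with adjusted p values of 1. For Srf it was 0.04 (SE 0.177), a value smaller than its error. Without CC-Ex rat 5 the interaction was 1.83 for Myod1 (unadjusted p = 0.034 in edgeR), 0.87 for Mrtfa (unadjusted p = 0.0428) and -0.40 for Mef2d (unadjusted p = 0.0103), each with an adjusted p of 0.903.

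Factors that bind each other or are close paralogs were compared across rats as deviations from group means, in 6 pairs. Srf and Mrtfa varied together, with r = 0.792 (n = 24 rats, permutation p = 0.00015, Benjamini-Hochberg adjusted p = 9e-04) and rho = 0.75 (permutation p = 0.00023). Leaving out CC-Ex rat 5 and Ex rat 4, whose Srf deviations lay farthest from the median deviation, gave r = 0.675, and leaving out CC-Ex rat 5 alone gave r = 0.672. The value was 0.548 in the 12 saline rats and 0.867 in the 12 monocrotaline rats.

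Mef2a and Mef2c also varied together, with r = 0.665 (n = 24 rats, permutation p = 4e-04, Benjamini-Hochberg adjusted p = 0.0012) and rho = 0.702 (permutation p = 0.00089). Without Sed rats 1 and 6, the farthest in Mef2a, r was 0.597, and it was 0.804 in saline and 0.575 in monocrotaline rats. The other 4 pairs did not pass. Srf and Hopx had r = 0.42 (permutation p = 0.0563, adjusted p = 0.113) and rho = 0.279 (permutation p = 0.213), with r = 0.349 without CC-Ex rat 5 and Ex rat 4 and 0.299 without CC-Ex rat 5 alone. Mef2a and Mef2d had r = 0.117 (permutation p = 0.53, adjusted p = 0.53) and rho = 0.317 (permutation p = 0.161), with r = 0.018 without Sed rats 1 and 6. Without CC-Ex rat 5 alone r was 0.433 (permutation p = 0.0605). For Mef2c and Mef2d r was -0.378 (permutation p = 0.178, adjusted p = 0.267) and rho was -0.088 (permutation p = 0.71), and r was 0.018 without CC-Ex rat 5 and Sed rat 1. Without CC-Ex rat 5 alone r was 0.188 (permutation p = 0.399), so the negative value rested on that rat. All these values share libraries, so a shift of a whole library enters both members of a pair.

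**Figure D4:**
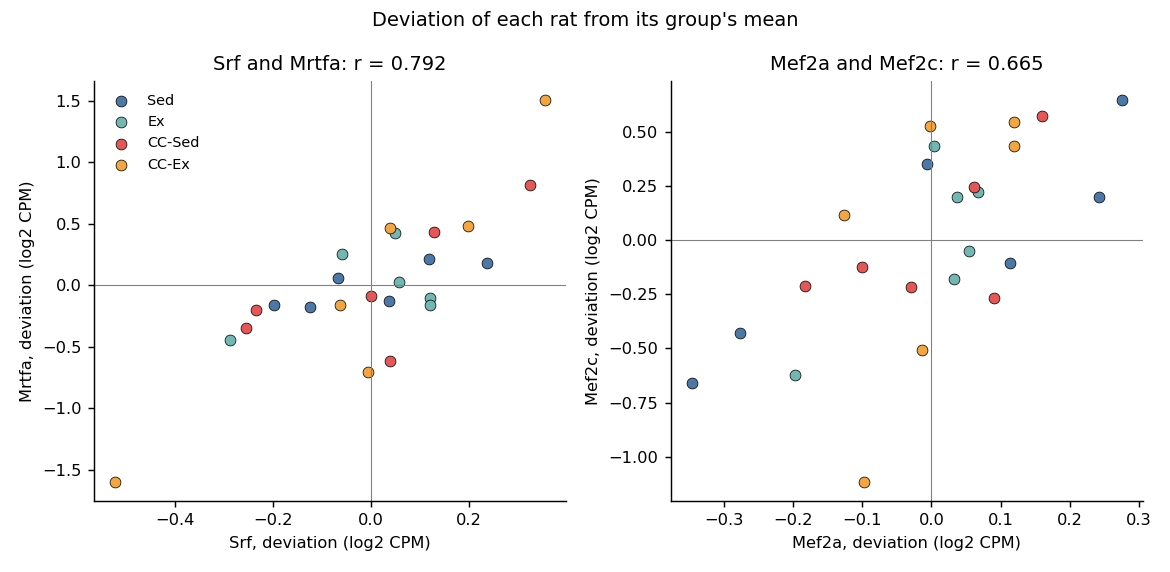
Deviation of each of the 24 rats from its group mean, in log2 CPM, for Srf against Mrtfa (left) and Mef2a against Mef2c (right), coloured by group. The CC-Ex rats 5 and 4 form the lower left and upper right ends of the Srf and Mrtfa plot, and r was 0.792 there and 0.665 in the other.

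Over all 28 pairs of the 8 factors, described without a test, Myod1 and Mrtfa had the highest value (r = 0.857) and Myod1 and Mef2d the lowest (r = -0.626), over 24 rats that share depth and library. The genes most like each factor by the same measure were Sync (0.906), Ttyh2 (0.895) and Fem1c (0.884) for Myod1, and Cnbp (0.782), Ccdc22 (0.73) and Tmem52 (0.715) for Myf6. For Srf they were Arhgap44 (0.926), Lrrc38 (0.896) and Dab2ip (0.893), and for Mrtfa Fbxw7 (0.914), Trim35 (0.895) and Bhlhe40 (0.893). For Hopx they were AABR07028805.1 (0.79), Uxs1 (0.743) and Naalad2 (0.708). Among the MEF2 genes, Mef2a was most like Cdc27 (0.826), Nfic (0.771) and Ccser2 (0.761), Mef2c most like Scn3b (0.852), Atp2b1 (0.83) and Sgcd (0.816), and Mef2d most like Bicra (0.922), Ubap1 (0.918) and Ep400 (0.917). The median correlation of a factor with all genes was between -0.072 and -0.018.

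The partners, regulators and known targets of the 3 families were then read from the same fit, 142 genes in 6 lists. In Sed vs. CC-Sed 4 of 142 passed (2.82%), against 6.46% of all genes. In Ex vs. CC-Ex 0 of 142 passed, against 0.995%, and 35 passed (24.6%) in the pooled comparison, 15 higher and 20 lower, against 27.8%. With upper-quartile scaling the pooled split was 7 higher and 27 lower, and in Sed vs. CC-Sed 1 higher and 3 lower in place of 2 and 2. These shares are near or below those over all genes, and are read as counts only. Single rats moved them: without 1 rat the pooled count ran from 23 (without CC-Sed rat 6) to 49 (without CC-Ex rat 4), and it was 29 without CC-Ex rat 5, 9 higher and 20 lower.

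Of the MRF partners and inhibitors 19 of 25 were measured. None passed within sedentary or trained rats, while in the pooled comparison Myf5, a myogenic factor of satellite cells, rose and Smarcd3, a chromatin remodelling subunit that Myod1 recruits, and Id2, an inhibitor that takes up E proteins, fell. Smarcd3 was called in each of the 24 fits without 1 rat, Myf5 in 13 (adjusted p up to 0.0811) and Id2 in 10 (up to 0.0805), and the count for the list ran from 1 (without Sed rat 3, Ex rat 1, or CC-Sed rats 1 or 6) to 4 (without CC-Sed rat 4). In Sed vs. CC-Sed the values were 0.94 on the log2 scale for Myf5 (edgeR adjusted p = 0.0678), -0.60 for Smarcd3 (edgeR adjusted p = 0.0662) and -0.48 for Mdfic (edgeR adjusted p = 0.0933). Myf5, also on the satellite cell list, where Megf10 fell in the pooled comparison, had mean levels of 1.27 CPM in Sed and 2.43 CPM in CC-Sed rats. In trained rats the lowest p values were those of Eya3, a phosphatase and transcriptional coactivator, and Id2 (log2 fold changes 0.20 and -0.42, edgeR adjusted p = 0.209 and 0.219). Myog, the myogenic factor of differentiation, had a pooled log2 fold change of 0.19 (SE 0.412, edgeR adjusted p = 0.742). The list median in Sed vs. CC-Sed was 0.00, beside 0.02 over all genes.

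Of the MRF targets 18 of 20 were measured, and none passed within sedentary or trained rats. In the pooled comparison the cell cycle inhibitor Cdkn1a rose, and the caveolin Cav3, the embryonic myosin light chain Myl4 and the acetylcholine receptor subunit Chrng fell. Chrng was called in each of the 24 fits without 1 rat, Myl4 in 16, Cav3 in 12 and Cdkn1a in 10, and the count for the list ran from 1 (without Ex rat 6) to 7 (without CC-Ex rat 4). Cdkn1a was at 0.93 without CC-Ex rat 5 (edgeR adjusted p = 0.147). In Sed vs. CC-Sed, the myosin-binding protein Mybph (log2 fold change -1.48, SE 0.592), the receptor-clustering protein Rapsn (-0.50, SE 0.213) and Chrng (-0.22, SE 0.0721) had the lowest p values, with edgeR adjusted p values of 0.112, 0.13 and 0.061. In trained rats Chrng was at -0.19 (SE 0.0721, edgeR adjusted p = 0.143) and Cdkn1a at 1.98 (SE 0.783, edgeR adjusted p = 0.149). Creatine kinase Ckm, a textbook target, had a pooled log2 fold change of -0.02 (SE 0.135).

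Of the MEF2 regulators 31 of 33 were measured. In Sed vs. CC-Sed 1 rose, Sik1, a salt-inducible kinase that exports class II histone deacetylases from the nucleus, with a log2 fold change of 1.63 (SE 0.453, edgeR adjusted p = 0.0383). That call held in 15 of the 24 fits without 1 rat, with adjusted p values up to 0.122. The calcineurin subunit Ppp3r1 (-0.65) and the deacetylase Hdac5 (0.30) did not pass there (edgeR adjusted p = 0.0626 and 0.0643). In trained rats Sik3, a kinase of the same family, was at 0.61 (SE 0.154, edgeR adjusted p = 0.0517) and Hdac3 at 0.26 (SE 0.0997, edgeR adjusted p = 0.14). In the pooled comparison 4 rose and 6 fell. Sik1, Sik3, Hdac3 and Hdac5 rose. Hdac9, Camk1, Camk2a, Map2k6, Ppp3cb and Ppp3r1 fell, among them kinases and calcineurin subunits of calcium signalling. Sik1, Sik3, Hdac5, Hdac9, Camk1 and Ppp3r1 were called in each of the 24 fits without 1 rat, but Camk2a in 21, Hdac3 in 19, Ppp3cb in 9 and Map2k6 in 4. The count for the list ran from 6 (without CC-Sed rat 6) to 12 (without CC-Sed rat 2 or CC-Ex rat 4).

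Of the MEF2 targets 22 of 24 were measured, and 1 fell in Sed vs. CC-Sed, the kelch protein Klhl31 (log2 fold change -0.86, SE 0.238, edgeR adjusted p = 0.0372), in 16 of the 24 fits without 1 rat (adjusted p up to 0.103). In trained rats Klhl31 was at -0.46 and Xirp2 at -0.60 (edgeR adjusted p = 0.243 and 0.118). Klhl31 and Xirp2, an actin-binding protein of striated muscle, fell in the pooled comparison, Xirp2 by 0.60 (SE 0.149, edgeR adjusted p = 0.00671). Its paralog Xirp1 was at 1.27 (SE 0.453) in Sed vs. CC-Sed, which did not pass (edgeR adjusted p = 0.0825), and at 0.25 (SE 0.447) in trained rats. The median of the list was 0.14 in sedentary and -0.07 in trained rats.

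Of the SRF cofactors and regulators 27 of 29 were measured. In Sed vs. CC-Sed Rhob, a small GTPase, rose by 0.53 (SE 0.145, edgeR adjusted p = 0.0367), and Elk3, a ternary complex factor that competes with Mrtfa for Srf, fell by 0.69 (SE 0.184, edgeR adjusted p = 0.0325). These calls held in 16 and 18 of the 24 fits without 1 rat. Lmod2, a leiomodin that nucleates actin filaments, was at 1.72 (SE 0.526, edgeR adjusted p = 0.0504), and in trained rats Mical2, which oxidises nuclear actin, was at 1.88 (SE 0.576, edgeR adjusted p = 0.0823). In the pooled comparison 7 of 27 rose and 3 fell, against 27.8% of all genes called. The count ran from 6 (without CC-Sed rat 6) to 13 (without CC-Ex rat 4) when 1 rat was left out. Abra, Fhl2, Lmod2, Mical2 and Rhob were among those that rose, and the ternary complex factors Elk1 and Elk3 and the formin Fhod1 fell. Abra, also called STARS, frees Mrtfa from actin monomers, and rose by 0.77 (SE 0.243, edgeR adjusted p = 0.0244). It missed the threshold without CC-Sed rat 6 or without CC-Ex rat 5 (0.52, edgeR adjusted p = 0.0648). Mical2 missed it without CC-Ex rat 5 (edgeR adjusted p = 0.0555), Lmod2 was called in 15 of the 24 fits and Fhl2 in 10, while Rhob, Elk3 and Fhod1 were called in each.

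Of the SRF targets 25 of 33 were measured. None passed within sedentary or trained rats. The lowest p values in Sed vs. CC-Sed belonged to Pdlim5 (0.34, SE 0.119), Ccn1 (0.98, SE 0.408) and Tln1 (0.48, SE 0.204), with edgeR adjusted p values of 0.0727, 0.125 and 0.132. In trained rats they belonged to the actin-disassembly cofactor Wdr1 (-0.47, SE 0.135, edgeR adjusted p = 0.0752) and the immediate-early factor Egr1 (-1.37, SE 0.451, edgeR adjusted p = 0.0994). The study itself, with DESeq2, reported Egr1 as downregulated in trained rats. In the pooled comparison Ccn1 and Pdlim5 rose and Egr1, Myl9, Tagln and Wdr1 fell. Pdlim5 missed the threshold without Ex rat 6, CC-Sed rat 1 or CC-Ex rat 5, and Egr1 without Sed rat 1 or Ex rat 5, while the other 4 were called in each fit without 1 rat. Myl9 and Tagln are also on the smooth muscle list given above. Skeletal actin, Acta1, had a pooled log2 fold change of -0.08 (SE 0.129, edgeR adjusted p = 0.641), and the median of the list in trained rats was -0.27, beside 0.01 over all genes.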

How the data were processed

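Poly-A RNA libraries of the medial gastrocnemius of 24 rats were sequenced. The authors trimmed reads with Trim Galore, quantified transcripts of the mRatBN7.2 annotation with Salmon, and summed them to genes with tximport, and the deposited table holds estimated counts as whole numbers, 1 column per rat. The lowest count in the table was 10, so genes with lower counts are not in it. The 13 entries without a symbol stayed in the fit under their identifiers.

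Counts were scaled with TMM and tested with edgeR 4.0.16 in R 4.3.3 (filterByExpr, glmQLFit, glmQLFTest) on the 4 groups, 6 rats each, with Benjamini-Hochberg adjustment over 10851 genes and an adjusted p under 0.05 as the call. The study's own criterion adds a log2 fold change of at least 1. Fold changes are monocrotaline minus saline, or trained minus sedentary. DESeq2 1.42.0 and limma 3.58.1 (voom with sample weights) were alternatives, besides upper-quartile scaling, low-count filters, the replicate block, library number and slow fiber score as covariates, fits of only the rats compared, and each rat left out. Library numbers ran from 1 to 14 in CC-Ex and from 9 to 24 in Sed rats. They thus followed treatment in part, and that covariate is not independent of the monocrotaline comparison. Pairs were tested on log2 CPM (prior count 2) with 1e+05 permutations of rats within groups, two-sided. The code was tested on simulated data. Named genes were all 8 factors, the 3 and 2 lowest p values per list in the sedentary and trained comparisons, and the 3 most alike genes per factor. Some genes of the lists are not reported here by name. The few other genes named (Myog, Ckm, Acta1, Abra, and those behind the pooled counts) were picked after their values were seen. The factors and lists were chosen with earlier results of these data known.

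No 2 libraries of a group agreed within sampling noise (chi-square per degree of freedom at least 43.8), and rats are separate animals.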

Additional observations from a re-analysis of the deposited data

Results flagged for a closer look

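In each group of 6 rats the highest or lowest level of each factor was set against its neighbours. A gap to the nearest rat above Dixon's 95% limit was found in 6 of 32 sets of gene and group. That limit assumes normally distributed values and was applied to CPM without a log. A rate of 1 in 20 by chance is therefore not assured, and the gaps were not checked on the log scale. Myod1 stood at 66.95 CPM in CC-Sed rat 2 (next rat 22.1) and at 123.7 CPM in CC-Ex rat 4 (next rat 36.1). Myf6 stood at 175.6 CPM in Sed rat 6 (next rat 113.8), and Hopx at 19.6 CPM in Sed rat 3 (next rat 11.44). Mef2d stood at 193.8 CPM in CC-Ex rat 5 (next rat 94.4), and Mef2a at 58.61 CPM in Ex rat 4, below the next rat at 67.37.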

How the results depend on the processing

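In Sed vs. CC-Sed 3 factors were called by edgeR, 6 by limma-voom, 4 by DESeq2, and 3 to 6 when each rat was left out in turn, with 6 without CC-Ex rat 5 and 5 without CC-Sed rat 4. Limma-voom added Myod1 (adjusted p = 0.00403), Srf (adjusted p = 0.0115) and Mef2d (adjusted p = 0.0338). In Ex vs. CC-Ex the counts were 0 by edgeR, 1 by DESeq2 (Hopx), 1 by limma-voom (Mrtfa, adjusted p = 0.00561) and 0 to 2 without single rats, with 2 without CC-Ex rat 4. The pooled monocrotaline comparison gave 5, 2 when a log2 fold change of at least 1 was also required, and 4 to 6 without single rats. With library number or slow fiber score as a covariate it gave 6, with Mef2d as the addition. Training and interaction comparisons gave 0 under each alternative run, and 2 of 6 pairs passed under each. With the replicate number as a block 4, 0 and 5 factors were called in the sedentary, trained and pooled comparisons, against 3, 0 and 5 without it, with Myod1 (adjusted p = 0.0466 in Sed vs. CC-Sed) as the addition, and 553, 1 and 2772 of all genes. The numbers share no stated litter or day, and same-numbered rats of Sed and CC-Sed had deviations correlated between -0.505 and 0.357 (over 0.1 in 4 of 6), with 2 of 6 rats correlating best with their own number, and 0 of 6 between Ex and CC-Ex. The value of Mef2d in Ex vs. CC-Ex reversed to -0.04061 without CC-Ex rat 5, and ranged up to 0.3186 without other single rats. Over all genes edgeR called 701 in Sed vs. CC-Sed against 1336 by DESeq2 and 2474 by limma-voom, and 173 (without CC-Sed rat 6) to 2096 (without CC-Ex rat 5) without single rats. In Ex vs. CC-Ex it called 108, against 685, 1043, 23 with upper-quartile scaling, 1 with the block, 1 with the 12 rats alone, 42 with library number as a covariate and 2 to 847 (without CC-Ex rat 4) without single rats. Of the 142 list genes, 4 in Sed vs. CC-Sed became 16 by DESeq2, 28 by limma-voom, 7 with the 12 rats alone, 8 with library number or slow fiber score as a covariate, and 3 with the replicate block. Without single rats the count ran from 0 (without Sed rats 2, 3 or 4 or CC-Sed rats 1, 3 or 6) to 23 (without CC-Ex rat 5, 16.2% beside 19.3% of all genes), and it was 20 without CC-Sed rat 2 (14.1% beside 12%), 19 without CC-Sed rat 4, 12 without CC-Ex rat 4, 2 without Sed rat 5 and 1 without CC-Sed rat 5. In Ex vs. CC-Ex 0 became 4 by DESeq2, 11 by limma-voom and up to 7 (without CC-Ex rat 4), and the pooled split of 15 higher and 20 lower became 7 and 27 with upper-quartile scaling. The cause of these differences was not tested. The correlation of Srf with Mrtfb could not be computed, and fits of only the rats compared were not run for pooled and interaction effects. The alternatives for single factors in the pooled comparison and for Myf6 in CC-Sed vs. CC-Ex were chosen after seeing the data.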
